A study of Arabidopsis thaliana with 8 samples.

Results

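The 89 probe sets described here marked transcripts that were abundant in roots and dim in shoots of untreated Arabidopsis seedlings. They were chosen by their signals on the control arrays: every probe set, controls left out, with a signal of 2000 or more on both control root arrays and under 100 on both control shoot arrays, except the probe sets of GSTU25, OSM34 and PDF2.5. That made 89 of 22746 probe sets. The arrays of selenate-grown plants played no part in the choice. Of the 89, 42 had 1 listed gene, 2 had several and 45 had none in the annotation used, and those without a single gene are called by their probe set names. A role could be given from general knowledge to 35 of the 42 genes.

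As background, roots of Arabidopsis make many transcripts that leaves hardly make. Class III peroxidases and extensins cross-link and stiffen the walls of growing cells and root hairs. Lipid-transfer and other lipid-binding proteins, lignin and suberin enzymes take part in building barrier layers and carrying hydrophobic molecules. Lectins, chitinases, defensin-like proteins, terpenes and coumarins belong to the chemical and protein defences facing the soil. Selenate is taken up through sulfate transport and enters sulfur metabolism.

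The seedlings, of ecotype WS, were taken at 10 days after vertical growth on MS medium that held either no selenate or 40 µM selenate. Roots and shoots of both kinds of plant were hybridised to Affymetrix arrays, with 2 arrays in each of the 4 groups. No other genotype or agent is named, and the labels do not say whether replicate arrays came from separate cultures. The spread behind the p-values rests on differences between the 2 arrays of a group and may be technical. In the main fit it was pooled over the 4 groups, roots and shoots together. limma also drew it toward the spread of other probe sets of similar signal. Titles and sources name the shoot samples as shoots, although their free-text descriptions speak of roots.

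Each array had been scaled to a trimmed mean signal of 500.04 to 500.05, and signals are given on that linear scale. Between 13224 and 14624 probe sets reached 100 on an array. Photosynthesis genes fitted the organ labels: 9 measured markers summed to between 189063 and 202438 on shoot arrays and between 2388 and 3895 on root arrays. The ratio of 3′ to 5′ GAPDH control probe sets, a sign of RNA integrity, lay between 0.783 and 0.868 on root arrays. On shoot arrays it was 2.03 and 10.4 in controls and 7.34 and 2.95 with selenate, so shoot arrays stood apart. The members' median shoot change and median organ difference are therefore also given without the arrays at 10.4 and 7.34.

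Taken alone, the root threshold was met by 6.97% of all probe sets and the shoot threshold by 38.9%. Members lay between 2015.2 and 13075.3 on control root arrays, with a median of 3343 over the members' means, and between 2.2 and 97.9 on control shoot arrays, with a median of 43.8. Together the 89 held 2.40% and 2.41% of all signal on the control root arrays and 0.0257% and 0.0244% on the control shoot arrays. These values chose the members and are a description only. Just inside the root threshold, AT2G44010 had 2015.2, AT1G30750 had 2033.7 and UGT72E2 had 2036.2 on their lower control root array, while the peroxidase gene AT5G66390 at 1934.4, 267457_at at 1946.1 and 254385_s_at at 1991.0 just missed it. Just inside the shoot threshold, UGT72E2 reached 96.5, 248528_at 96.7 and 260882_at 97.9 on their higher control shoot array, while AT5G10580 at 101.8, 260130_s_at at 102.7 and 266884_at at 103.0 were just outside.

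**Figure D1:**
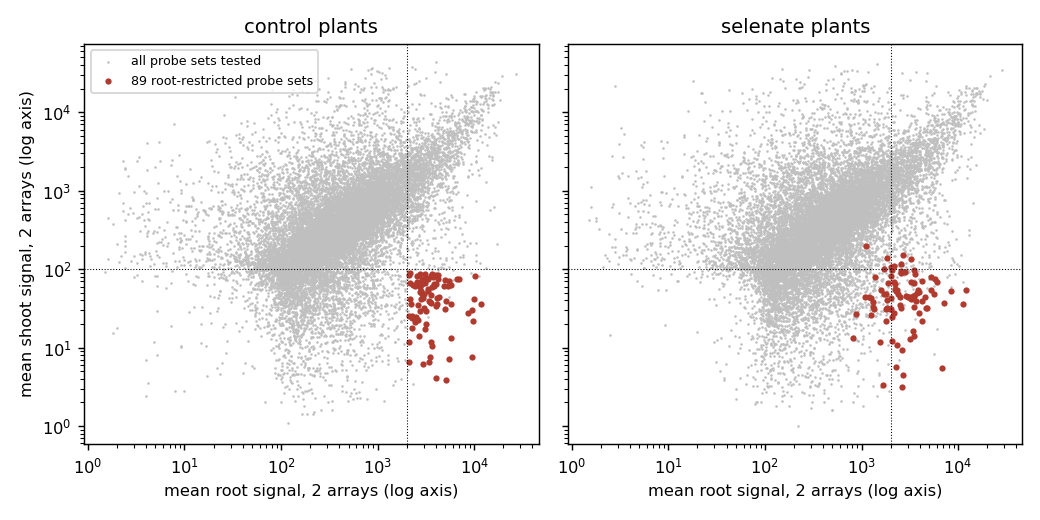
Mean root signal (horizontal, log axis) against mean shoot signal (vertical, log axis), both without unit on the scale of the deposited table, in control plants (left) and selenate-grown plants (right); grey points are all probe sets tested, red points the 89 root-restricted ones and dotted lines mark 2000 and 100. In control plants the red points fill the corner that chose them, and with selenate many moved left of 2000 while staying low in shoots.

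The 35 genes with a role belonged to a few families, grouped after their values had been seen. Lipid-binding proteins and specialised metabolism had 7 genes each, class III peroxidases and defence-related proteins 6 each, cell-wall structural proteins 4 and proteases 3, beside the dehydrin LTI30 and the MATE transporter AT5G38030. The adjacent jacalin-type lectin genes AT1G52050 and AT1G52060, with 0 protein-coding genes between them in RefSeq, were both members. The glutathione transferase gene GSTU26 neighboured GSTU25 with 0 genes between, but GSTU25 had been left out by rule. Of the probe sets, 7 had names ending in _s_at and 4 in _x_at, which may pick up related transcripts as well, so that their signals are less certain.

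The brightest members had mean control root signals of 5317 and more. Among the 15 brightest, 7 had 1 gene. The peroxidase gene AT4G30170 had 10963.5 and 9526.8 in control roots and 8708.3 and 8360.0 in selenate roots, and its shoot signals lay between 47.2 and 83.1. The hydroxyproline-rich protein gene AT4G38080 had 6666.7 and 6726.5 in control roots and 5988.4 and 7606.4 in selenate roots, where the groups overlapped. The defensin-like gene AT4G22212 had 6915.7 and 6973.8 in control roots and 5764.1 and 5572.9 in selenate roots. The brightest of all, 259553_x_at, had no listed gene and read 10450.4 and 13075.3 in control and 9747.2 and 14197.4 in selenate roots, so its replicates differed by more than its groups. The unnamed 265561_s_at had 9516.2 and 9417.1 against 11949.4 and 10306.3, 248844_s_at had 9747.3 and 9219.9 against 7028.8 and 7391.5, and neither was called. Also without a call were 258751_at, with 6023.7 and 5550.2 against 5583.3 and 5963.7, 247333_at, with 6126.4 and 5419.3 against 3701.5 and 3213.7, and 256994_s_at, with 5652.3 and 5394.3 against 3928.1 and 3509.6. In all, 4 of the 15 brightest were called lower in selenate roots, and they are described with the others below.

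The selenate arrays, which played no part in the choice, showed whether the members kept their organ difference in plants grown on selenate. Every member had been chosen for a large difference between control organs, so a difference with selenate was largely given in advance. The shares over all probe sets are set beside it as a description only. All 89 were lower in selenate shoots than in selenate roots by limma at an adjusted p under 0.05, where 39.5% of the 16053 probe sets tested were called lower in shoots. On all 89 both shoot arrays were below both root arrays, against 50.4% of probe sets tested. Ratios were taken on the log2(signal + 25) scale, which understates them for dim signals. The root to shoot ratio with selenate had a median of 40.9 and ran from 5.20 for 259365_at to 223 for AT4G38080, and 88 of 89 stood at 10 or more. On control arrays, which chose the members, it had a median of 51.6 and ran from 18.8 for UGT72E2 to 293 for 265561_s_at. The median difference with selenate was -5.35 on the log2 scale, shoots minus roots, against -0.25 over all probe sets tested. The root and shoot samples are mixtures of cells, in which fewer cells of a type and less RNA per cell cannot be told apart.

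Applied to the selenate arrays, the same thresholds would have kept 51 of the 89. Of the members, 60 still had 2000 or more on both selenate root arrays, 7 had it on only 1 and 22 on neither, and 2 lay under 1000 on both. In selenate shoots 13 reached 100 on at least 1 array, 7 on both, and only 259365_at reached 200. In the other direction, 33 probe sets that were neither members nor among the 3 left out met both thresholds on selenate arrays.

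In selenate roots, 16 members fell and 0 rose. A call is an adjusted p under 0.05 from limma over all 16053 probe sets, of which 2.37% were called lower and 3.35% higher, and the 16 were 18.0% of the members. At an unadjusted p under 0.05 there were 37 members, the 16 included, of which 2 were higher, SBT4.12 and UGT72E2. The median change over the 89 was -0.33 on the log2 scale, against -0.02 over all probe sets tested and -0.05 over the 1494 other probe sets of 2000 or more on both control root arrays. Of those 1494, 4.42% were called lower and 1.07% higher. The control root arrays chose the members and also enter this change, as they do for the 1494. The choice thus favoured lower values with selenate in both sets, by an amount that was not measured.

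The values on the arrays showed the same. On 62 members both selenate root arrays were below both control root arrays, where 29.9% of all probe sets tested did so. On 12 both were above, where 23.6% did so, and on 15 the groups overlapped. Both were below on 38.4% of the 1494 other probe sets abundant in control roots (573, with 259 above). They were below on 33.2% of 2196 other tested probe sets under 100 on both control shoot arrays (728, with 666 above). The summed signal of the 89 was 354710 and 350171 on the control root arrays and 270676 and 277344 on the selenate root arrays, or 1.85% and 1.90% of all signal there. The median of the members' means was 2548 in selenate roots. Over the 89, the change from control to selenate replicate 1 and that from control to selenate replicate 2 had a Pearson correlation of 0.957, and 0.773 with the replicates crossed. These describe 89 probe sets on the same 4 arrays. Across members, the change had a Spearman's rho of -0.07 with the control root signal and -0.08 with the control root to shoot ratio, given as a description since the same control arrays enter both measures.

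**Figure D2:**
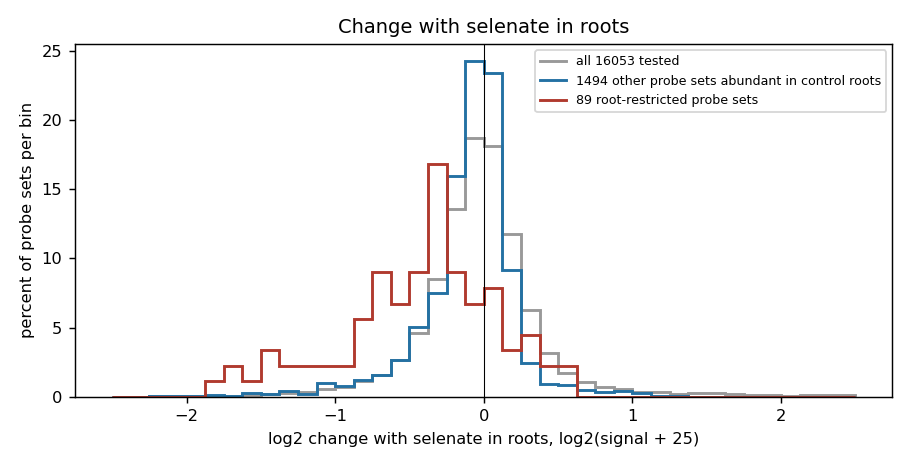
Log2 change with selenate in roots (horizontal, on log2(signal + 25)) as percent of probe sets per bin (vertical), for the 89 root-restricted probe sets (red), the 1494 other probe sets abundant in control roots (blue) and all 16053 tested (grey). The red outline is shifted to the left, with a median of -0.33 against -0.05 and -0.02, and its left tail holds the members called lower.

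The spread used by the test came from root and shoot arrays together, and the members are dim in shoots. The pooled replicate SD over members had a median of 0.0925 on the log2 scale in roots and 0.320 in shoots, against 0.128 and 0.237 over all probe sets tested, and it was larger in shoots for 77 of 89. In a limma fit of the 4 root arrays alone, 41 members were called lower and 4 higher, where 7.15% and 6.22% of all probe sets were, and the 16 were among the 41. With a root array left out, between 2 and 4 of the 16 calls remained, and only 245148_at and 251226_at were called whichever of the 8 arrays was left out. The calls lost without a root array had limma adjusted p between 0.0504 and 0.359, and that of AT4G30670 was also lost without either selenate shoot array (0.0586 and 0.0583). The count also depended on the pseudocount. With 100 it was 26, the 16 included. With 5 it was 6, those of 245148_at, 251226_at, 259365_at, 262603_at, AT2G37750 and AT4G26010, and the 10 calls lost there, which include AT3G29410, AT2G16005, AT1G14960, AT5G17820 and 255516_at, had limma adjusted p between 0.0662 and 0.211.

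Among lipid-binding proteins, 2 of 7 genes fell and 5 were not called, with a median log2 change of -0.29. For this group and those below, 18.0% of the 89 members and 2.37% of all probe sets tested were called lower. AT2G16005, an ML-domain protein of a family that binds lipids, read 10892.9 and 8813.4 in control roots and 3921.1 and 3093.3 in selenate roots. The groups were far apart, and the gene fell 2.80-fold (log2 -1.49 ± 0.30 SE, limma adjusted p = 0.0193). AT1G14960, a Bet v 1 family member, had 2771.7 and 2631.5 against 1595.1 and 1589.8, a fall of 1.69-fold (limma adjusted p = 0.0394). The second ML-domain gene, AT5G23830, had 2708.3 and 2815.4 against 2166.5 and 1876.9 and was not called, as was the other Bet v 1 gene AT3G26460 with 2718.8 and 2976.9 against 2233.2 and 2522.3. Lipid-transfer proteins, small secreted proteins that shuttle lipids outside the cell, gave no call. AT2G18370 had 4379.4 and 4053.3 against 3737.5 and 3325.2, AT2G48130 had 2238.8 and 2186.6 against 1785.8 and 1829.2, and AT3G58550 had 4625.3 and 3988.4 against 5315.0 and 5079.4. Without overlap, then, 6 of the 7 lay lower and AT3G58550 higher. Of the 89 members 69.7% lay lower without overlap, and of all probe sets tested 29.9%.

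Of the 6 class III peroxidases, secreted heme enzymes that oxidise wall phenolics with hydrogen peroxide, 2 fell and 4 were not called (median log2 change -0.37). AT4G26010 had 2686.1 and 2979.4 in control roots and 1385.7 and 1321.5 in selenate roots, a fall of 2.07-fold (log2 -1.05 ± 0.19 SE, limma adjusted p = 0.0120). AT5G17820 had 5758.1 and 5236.2 against 3178.1 and 3232.0, a fall of 1.71-fold (limma adjusted p = 0.0230). Signals of the other 4 were closer. AT5G64100 had 9143.2 and 8020.6 against 6339.5 and 5887.3, AT3G01190 had 5773.3 and 5730.2 against 4683.9 and 4938.5, and AT2G18980 had 3504.8 and 3181.6 against 3295.8 and 3188.4. With AT4G30170, given above, 5 of 6 lay lower without overlap, and AT2G18980 was the exception. The share was 69.7% over the 89 members and 29.9% over all probe sets tested. In the whole family, of 73 loci listed 55 were on the table and 42 were tested, with 7 called lower, 5 higher and a median of -0.08. The list was added after values had been seen. Among tested genes that were not members, AT1G34510 fell from 580.9 and 617.3 to 90.2 and 120.8, and AT4G33420 rose from 3122.6 and 3340.9 to 5091.7 and 5586.1 (limma adjusted p = 0.000395 and 0.0330).

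In specialised metabolism, 1 of 7 genes fell (median -0.23), where 18.0% of the 89 members and 2.37% of all probe sets tested were called lower. AT3G29410, a terpene synthase, had 4202.6 and 3780.4 in control roots and 1264.5 and 1143.9 in selenate roots, a fall of 3.27-fold (log2 -1.71 ± 0.33 SE, limma adjusted p = 0.0147). It had the largest fall of any member with 1 listed gene. AT3G13610, an enzyme of scopoletin synthesis, had 3621.8 and 3369.5 against 2473.1 and 2086.0, and the short-chain dehydrogenase gene AT1G64590 had 2177.2 and 2110.9 against 1375.6 and 1394.5. Neither was called, although both genes lay lower without overlap, as did 29.9% of all probe sets tested. The SABATH methyltransferase gene AT5G37990 had 3841.3 and 3430.0 against 3431.0 and 3031.9 and overlapped between groups. The tau glutathione transferase genes GSTU22, with 2609.1 and 2264.8 against 2337.6 and 2065.9, and GSTU26, with 2832.9 and 3170.5 against 2549.8 and 2542.5, were also not called. Of 13 glutathione transferase genes tested, 1 was called higher in selenate roots, GSTU27 with a log2 change of 1.31. The median was -0.14, and 3.35% of all probe sets tested were called higher. UGT72E2, a glucosyltransferase acting on monolignols and thus on lignin precursors, went the other way, from 2036.2 and 2250.0 to 3094.6 and 3392.0, with a log2 change of 0.59 that was not called in the fit of all arrays (limma adjusted p = 0.130) and was called in that of root arrays alone (0.00652).

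Of the 6 defence-related genes, 0 were called in roots by limma in the fit of all arrays. In roots 0 had an unadjusted p under 0.05, and their median change was 0.00. AT2G43610, a chitinase family member, had 3042.0 and 2844.9 in control roots and 4573.6 and 4460.3 in selenate roots, the highest change of any member at 0.61 on the log2 scale (limma adjusted p = 0.356, and 0.00306 with root arrays alone). The jacalin-type lectin gene AT1G52060 had 3025.2 and 3185.0 against 3879.3 and 3920.3, called with root arrays alone (0.0456) and not with all arrays. Its neighbour AT1G52050 had 2087.7 and 2169.9 against 2578.1 and 2517.4 and was called in neither fit. These 3 lay higher without overlap and the other 3 lower, where 12 of the 89 members lay higher and 62 lower. Over all probe sets tested 23.6% lay higher and 29.9% lower. AT1G18980, a germin-like protein gene, had 5154.4 and 4967.8 against 4199.1 and 4282.5, and the dirigent protein gene AT4G13580, whose family steers the coupling of phenolic radicals, had 2587.3 and 2441.8 against 2138.1 and 1857.0. The defensin-like AT4G22212 was the other of the lower 3.

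Of 4 genes for cell-wall structural proteins, 0 were called in roots by limma in the fit of all arrays. In roots 0 had an unadjusted p under 0.05 (median -0.15). The extensin-like AT3G28550 had 2884.9 and 3078.5 in control roots and 1743.0 and 1890.0 in selenate roots (log2 -0.71 ± 0.36 SE), called with root arrays alone (limma adjusted p = 0.00211) and not with all (0.439). The extensin-like AT1G23720 had 3178.1 and 4359.1 against 2340.5 and 3840.1 and overlapped, and its probe set is of the less certain _x_at kind. AT1G26250 had 3436.0 and 3381.8 against 3740.0 and 5530.9. Of 17 extensin loci in a list added after values had been seen, 9 were on the table and 8 tested, and 2 that were not members fell. These were AT3G54580 and HRGP1, with log2 changes of -1.44 and -1.08, and the median of the 8 was -0.70.

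Of 3 protease genes, 0 were called in roots by limma with all arrays. In roots 2 had an unadjusted p under 0.05, AT3G19390 and SBT4.12 (median -0.48). The aspartyl protease AT3G51330 had 2118.0 and 2075.8 in control roots and 1231.5 and 1274.9 in selenate roots, and the cysteine protease AT3G19390 had 3722.9 and 3334.3 against 2556.5 and 2474.2. Both were called lower with root arrays alone (limma adjusted p = 0.00143 and 0.0135). The subtilase SBT4.12 had 3445.8 and 2965.4 against 4393.8 and 4100.2 and was the only protease with higher values, called with root arrays alone (0.0401). The dehydrin LTI30, which protects cells during water loss and cold, had 2643.8 and 2826.8 against 2000 and 2011.9. AT5G38030, a MATE transporter of the family that exports small organic molecules, had 2508.6 and 2634.3 against 2107.1 and 2291.6. Neither was called with all arrays, and LTI30 was called lower with root arrays alone (0.0157).

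**Figure D3:**
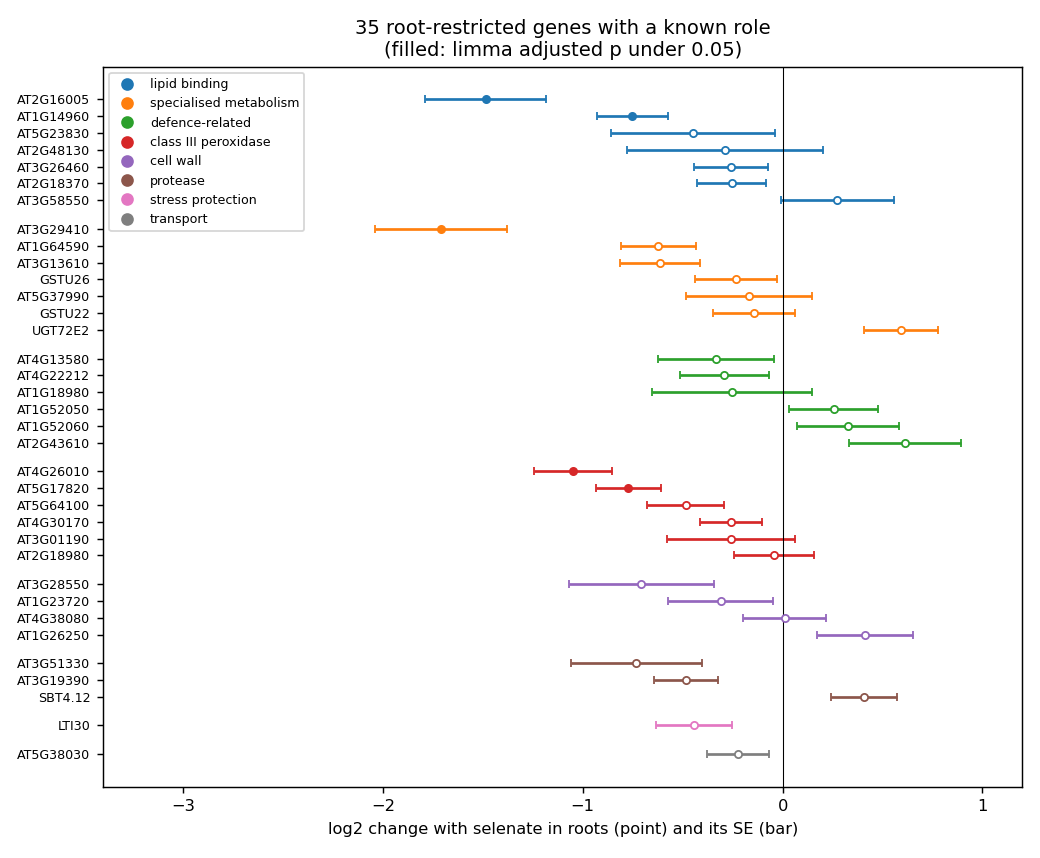
Log2 change with selenate in roots (horizontal; points, with bars of 1 SE) for the 35 root-restricted genes with a known role, ordered by role and coloured by it; filled points passed limma's adjusted p under 0.05 and open points did not. The 5 filled points are AT2G16005, AT1G14960, AT4G26010, AT5G17820 and AT3G29410, all left of 0, and UGT72E2 and AT2G43610 lie farthest right.

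The other 11 members that fell had no role assigned here. AT2G37750 fell 2.24-fold, from 3993.0 and 3588.5 to 1920.8 and 1468.6, and AT4G30670 fell 1.82-fold, from 3799.4 and 3830.0 to 2143.5 and 2036.0 (limma adjusted p = 0.00475 and 0.0420). The remaining 9 had no listed gene. Of these, 255516_at had 3135.8 and 3183.2 in control roots and 865.2 and 869.9 in selenate roots, the largest fall of all members at 3.57-fold (log2 -1.84 ± 0.29 SE, limma adjusted p = 0.00476). Its replicates were almost equal within each group. The brightest of them, 254828_at, fell 2.74-fold from 9210.5 and 10009.0 to 3428.0 and 3537.1.

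The most stable calls belonged to 245148_at and 251226_at. 245148_at read 2557.5 and 2797.8 in control roots and 831.9 and 789.7 in selenate roots, and 251226_at read 5225.3 and 4982.1 against 1665.4 and 1659.7. They fell 3.23-fold and 3.04-fold, with limma adjusted p of 0.000454 and 0.000312. On shoot arrays 251226_at stayed between 3.3 and 3.9. The signals of 264567_s_at were 3239.6 and 3739.4 against 1195.9 and 1454.9 (2.61-fold), and of 262603_at 5256.6 and 5377.6 against 2518.7 and 2497.1 (2.11-fold). Smaller falls were seen for 261459_at, from 2145.8 and 2491.3 to 1090.4 and 1390.7 (1.86-fold), and 249009_at, from 2810.5 and 3258.3 to 1539.8 and 1912.5 (1.75-fold). The last, 259365_at, is described with the shoots. In all, 11 of the 16 fell 2-fold or more. Over all probe sets tested, 234 of the 380 called lower did so.

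**Figure D4:**
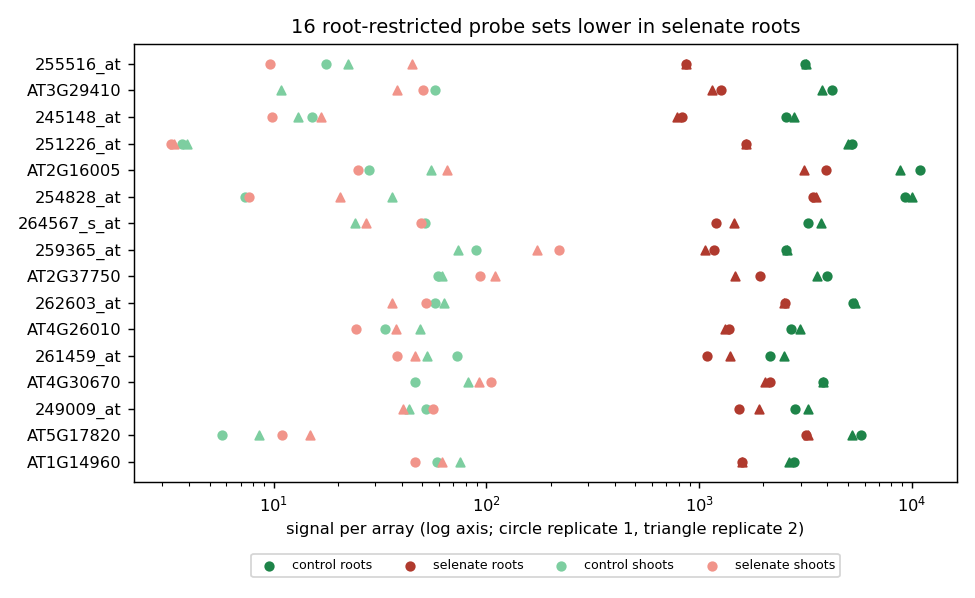
Signal per array (horizontal, log axis, scale of the deposited table) for the 16 root-restricted probe sets that fell in selenate roots, 1 line each, with circles for replicate 1 and triangles for replicate 2; dark green and red mark control and selenate roots, pale green and red control and selenate shoots. On every line both selenate root points lie left of both control root points, and shoot points lie farther left, the highest at 220.2 for 259365_at.

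Large differences between control and selenate roots that missed the threshold were also seen. 254215_at had 2899.5 and 2662.6 against 1144.7 and 1029.0 (log2 -1.34, limma adjusted p = 0.0984), and 263552_x_at had 4475.1 and 5388.3 against 1555.6 and 2432.4 (-1.32, 0.224). The fitted change of 57 members was under 1.5-fold either way. The lower and upper quartiles of the members' log2 change were -0.73 and -0.04. They were -0.21 and 0.16 over all probe sets tested, and -0.21 and 0.06 over the 1494 other probe sets abundant in control roots. Members without a listed gene had a median change of -0.46 with 9 called lower, and those with 1 gene -0.26 with 7 called lower.

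Some markers of cell types were also lower in the same selenate root samples, and others were not called. Of 15 root hair genes listed, 3 were on the table and 0 were members. The expansin EXPA7 fell from 532.6 and 459.5 to 195.8 and 220.5 and the peroxidase AT1G30870 from 1279.0 and 1281.3 to 560.6 and 498.8 (limma adjusted p = 0.0138 and 0.0221), while EXPA18 had 735.1 and 603.5 against 261.9 and 234.5 (0.178). Their summed signal was 2547 and 2344 in control roots and 1018 and 954 in selenate roots. AT1G30870 is also one of the class III peroxidases counted above. Of 17 green tissue markers listed 9 were measured. Their fitted log2 changes in roots were all negative, from -1.82 for LHCB4.2 to -0.04 for SBPASE, whose groups overlapped. By limma 3 were called lower, LHCB4.1, PSAE-1 and LHCB4.2, and 6 were not called. Over all probe sets tested, 53.4% had a negative change and 2.37% were called lower. The summed signal of the 9 was 3895 and 3351 in control and 2529 and 2388 in selenate roots. The 7 measured genes of the root ER body and its glucosidase PYK10, out of 18 listed, gave 0 calls, with a median of 0.07. PYK10 itself read 18327.5 and 16743.0 against 18137.9 and 18792.6. The part of cell-type makeup in the members' change was not tested.

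In shoots the members stayed dim, and few calls were made. Selenate shoot signals lay between 2.3 and 220.2, with a median of 44.0 over the members' means. By limma, 2 members were called higher and 1 lower in selenate shoots, where 1.07% and 0.797% of all probe sets were. On a single simulated data set, 22.9% of the calls in the shoot comparison were false, so the adjusted p of shoot calls may be too low. That share depends on the simulated settings, which may differ from these data. The median change over the members was 0.02, against -0.02 over all tested. Without the 2 shoot arrays of highest GAPDH ratio these medians were 0.022 and 0.002. The choice of members under 100 on control shoot arrays favoured higher values with selenate. Both arrays lay higher on 18 members (17.1% of all tested), both lower on 16 (19.0%), and the groups overlapped on 55. Over 2196 other tested probe sets under 100 on both control shoot arrays, the median change was 0.07. On 567 of these both arrays lay higher and on 298 both lower. The change from replicate 1 to 1 and that from 2 to 2 had a Pearson correlation of 0.162 over members, far under that in roots. The members' share of all signal in selenate shoots was 0.0282% and 0.0275%.

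The probe set 259365_at, with no listed gene, was called in both organs and in opposite directions. In shoots it rose from 89.6 and 73.3 to 220.2 and 172.8 (log2 1.05 ± 0.18 SE, limma adjusted p = 0.0215), and in roots it fell from 2564.6 and 2594.2 to 1175.1 and 1069.4, or 2.27-fold. Its root to shoot ratio was 24.5 in control plants and 5.20 with selenate. The dirigent protein gene AT4G13580 had 7.4 and 41.2 in control shoots and 104.1 and 108.7 in selenate shoots, and rose 2.84-fold by the test (limma adjusted p = 0.0386), with control replicates that differed from each other severalfold. Both rises were lost when any root array or a selenate shoot array was left out, with adjusted p between 0.0527 and 0.143. AT4G38080, the hydroxyproline-rich protein gene, fell from 91.5 and 57.9 to 3.3 and 7.7 (log2 -1.69, limma adjusted p = 0.00708), all of them signals under 100. Its call was lost only without selenate shoot replicate 1 among the 8 omissions of an array (adjusted p = 0.0578). Sizes and calls in this range of signal depended on the pseudocount of 25. With 5 the log2 change of AT4G38080 was -2.92 and with 100 it was -0.72 and no longer called (limma adjusted p = 0.0634), while AT4G13580 was called with neither (0.0682 and 0.0556).

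In a fit of the 4 shoot arrays alone, limma called 0 of 16053 probe sets, members included, with 1318 at an unadjusted p under 0.05. Without the shoot arrays of highest GAPDH ratio, which leaves 1 array in each shoot group and takes its spread from the roots, 11 members were called higher and 7 lower. The 3 calls above were among them.

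The root and shoot changes differed for 12 members. The shoot change minus the root change was called higher for 11 and lower for 1, where 1.42% and 2.28% of all probe sets were, with a median of 0.42 over the 89 and 0.01 over all tested. The control arrays that chose the members enter both changes. Their choice favoured lower root changes and higher shoot changes, and so a positive difference. Without the 2 shoot arrays of highest GAPDH ratio the median was 0.32 over the 89 and 0.02 over all tested. With a pseudocount of 5, and likewise without a filter, 6 of the 12 calls remained, those of 245148_at, 251226_at, 259365_at, AT2G37750, AT5G64100 and AT4G38080, and the 6 lost had limma adjusted p between 0.0534 and 0.199. Of the 12, 8 had a root call, 3 a shoot call with 259365_at in both, and 2 had neither. These last were the peroxidase AT5G64100, with shoot signals of 18.2 and 36.4 against 68.8 and 69.3, and 264923_s_at, with 4045.5 and 4421.5 against 2717.2 and 2707.7 in roots and 89.5 and 58.4 against 113.6 and 190.7 in shoots. The largest difference was that of 259365_at, at 2.24 on the log2 scale (limma adjusted p = 0.00123), and of the 12 it alone was called whichever of the 8 arrays was omitted. The next were AT3G29410 at 2.05 and 255516_at at 1.96, where the shoot change itself was 0.34 and 0.13 and not called.

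**Figure D5:**
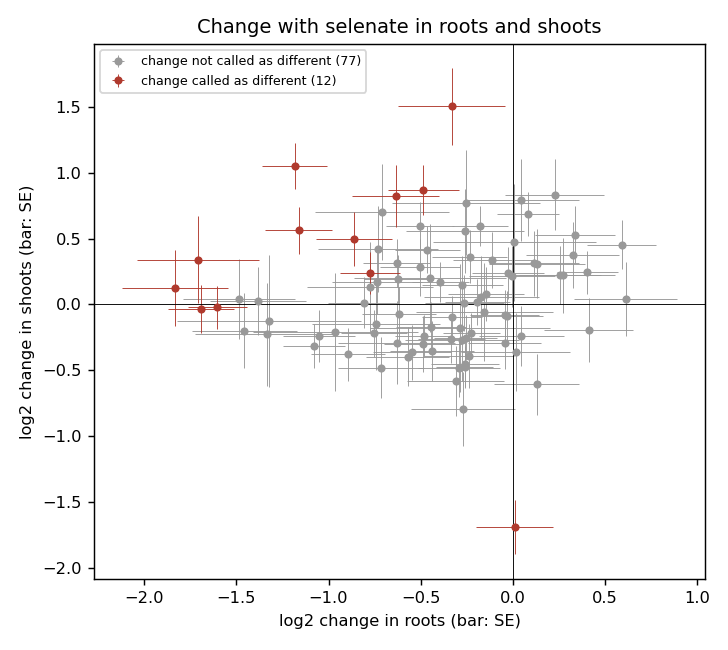
Log2 change with selenate in roots (horizontal) against that in shoots (vertical) for the 89 root-restricted probe sets, with bars of 1 SE; red points are the 12 whose changes differed between organs by limma, grey points the other 77. Most red points lie at the left, near or above 0 in shoots, and the lone red point at the bottom is AT4G38080, at 0.01 in roots and -1.69 in shoots.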

How the data were processed

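The deposited table holds 1 signal per probe set and array, a linear intensity; the authors used MAS5 for it, as the submitters' processing notes say without a version. Detection calls were not used. MAS5 summarises each array alone and subtracts mismatch signal, so signals under 100 carry large relative errors. Of 22810 probe sets, 64 controls were left out. Samples were grouped by title.

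Values were taken as log2(signal + 25). Probe sets of 100 or more on at least 2 of 8 arrays were tested, 16053 in all; the 89 members all passed, through the rule itself. limma 3.58.1 in R 4.3.3 fitted 4 group means with a variance trend, 4 residual and 5.12 prior degrees of freedom, and Benjamini-Hochberg adjustment over all probe sets tested. The number of arrays limits the precision. A single data set of 16053 probe sets, 200 of them changed, was simulated with independent normal noise. The root comparison recovered 43% of 2-fold and 99% of 4-fold changes with 0% false calls, and the shoot comparison 59% and 99% with 22.9% false. Deviations shared between arrays were not simulated.

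Gene names came from the platform's annotation, updated through RefSeq (TAIR10.1). No coordinates or sequences are given, since the probe sets' genome build is unstated and no sequence was at hand. Named are members called in the selenate comparison of roots or of shoots or in their difference, the 15 brightest, those of role groups of at least 2 genes and those next to a threshold; a few others were chosen after their values were seen. The members, lists and roles were chosen with earlier results of these data known. Among lists by locus, Casparian strip and aquaporin had 0 genes on the table and the triterpene list 1, AT5G47980 (log2 0.46, not called). Of the families found by keyword only glutathione transferases are described. Other pseudocounts, filters, normalizations, array sets and omitted arrays were tried.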

Additional observations from a re-analysis of the deposited data

Results flagged for a closer look

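For 12 members the change with selenate differed between organs by a direct test (limma, all arrays, adjusted p under 0.05). The value is the shoot change minus the root change on the log2 scale. The choice of members by the control arrays favoured positive values. It was 1.96 for 255516_at, 2.05 for AT3G29410, 1.66 for 245148_at, 1.58 for 251226_at, 2.24 for 259365_at, 1.72 for AT2G37750, 1.36 for AT4G30670 and 1.01 for AT5G17820, all of which fell in roots. It was 1.46 for 264923_s_at, 1.35 for AT5G64100 and 1.84 for AT4G13580, which had no root call, and -1.70 for AT4G38080. With a pseudocount of 5 or without a filter 6 of these 12 calls remained, and without the 2 shoot arrays of highest GAPDH ratio all 12, among 28 higher and 4 lower. Shoot signals of these members were at most 220.2, and the GAPDH ratio of the shoot arrays ran from 2.03 to 10.4; the part of either was not tested.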

How the results depend on the processing

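All 89 members were lower in selenate shoots than in selenate roots in every setting in which this was fitted (the crossed block was run for shoots alone), although the split of all probe sets (4114 higher, 6340 lower) moved to 4709 and 5771 with quantile normalization over all arrays and to 4718 and 5506 with median centring. A filter of 200, both quantile normalizations and median centring kept the counts of member calls within 1.5 times in roots, in shoots and in their difference. The pseudocount did not. With 5, 6 members were called lower in roots and 5 differences higher, and with 100 these were 26 and 17. With 100 there were also 1 higher and 0 lower in shoots and 0 differences lower. Over all probe sets tested, 297 were lower in roots and 174 differences higher with 5, and 516 and 317 with 100. Without a filter 1 was higher in shoots and 5 differences were higher. With only the arrays of a comparison, 41 were lower and 4 higher in roots and 0 and 0 in shoots. Without the 2 shoot arrays of highest GAPDH ratio, 40 were lower and 2 higher in roots, 11 higher and 7 lower in shoots, and 28 differences were higher and 4 lower; AT5G23830 in shoots turned from 0.20 to -0.85. The labels do not pair the replicates, and 2 per group cannot settle it: deviations of same-numbered arrays from their group means correlated at 0.339 between root groups and -0.485 between shoot groups. With the replicate number as a block, 12 were lower in roots, 1 higher in shoots and 6 differences higher; crossing the pairing in shoots, a choice made after seeing the data, gave 9 higher and 3 lower. With each array left out in turn, the calls ran from 2 to 21 lower in roots, from 0 to 5 higher and from 1 to 2 lower in shoots, and from 1 to 16 higher and 0 to 2 lower for the difference, and the shoot median, 0.02, ran from -0.029 (without control shoot replicate 2) to 0.066. The causes of these shifts were not tested.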
